A study of Homo sapiens with 2 samples.

Results

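The 10 genes examined belong to the heat shock protein system: HSPD1, HSPE1, HSPA9, HSPA5, HSPA8, HSPA1A, HSPH1, HSP90AA1, HSP90AB1 and HSPB1. They were chosen by symbol. All 10 were found, each as a single row, among 55771 gene symbols. Total RNA was sequenced from BFTC 905, an established human urothelial (bladder) carcinoma line. Vector control cells had been transfected with empty pcDNA3.1-myc-His (-) A, the other cells with a plasmid overexpressing ANGPTL4, a secreted regulator of lipoprotein lipase. Stable clones of both were selected in G418 at 400 µg/ml, which both groups share. The labels do not say how many clones each library holds or which promoter drives ANGPTL4. With 1 library per group there is no replicate, no p-value was computed, and every difference below is one between these 2 libraries, in which ANGPTL4, the clone, the culture and the preparation cannot be told apart.

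Heat shock proteins are chaperones that bind unfolded protein and help it to fold. The cytosolic HSPA proteins work with DNAJ partners and nucleotide exchange factors and can pass clients to the HSP90 proteins. HSPA5 does this work in the endoplasmic reticulum and HSPA9 in the mitochondrial matrix, where the chaperonin HSPD1 forms a barrel that its partner HSPE1 closes as a lid. The transcription factor HSF1 induces many of these genes under protein stress by binding heat shock elements, inverted repeats of the unit GAA. Many carcinoma cells hold high levels of chaperones without heat shock.

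The promoters of these genes were searched for exact matches to such elements. The sequences below are RefSeq promoter sequences of build GRCh38.p14, matched by symbol. All 10 genes matched, with 14 windows of 300 bases (250 before a start and 50 after). A pair of heat shock units stood as GAANNTTC in 6 of the 14 windows, from 6 genes (6.77% of all windows). As TTCNNGAA it stood in 5 of the 14, from 5 genes (7.74% of all windows). Among these genes HSPA1A, HSPB1 and HSPA9 held a pair without a run of 3 units. A search for exact matches does not show which genes lack elements. A run of 3 heat shock units (GAANNTTC with NNGAA directly after it, searched on both strands) stood in 4 of the 14 windows. These belong to HSPD1, HSP90AA1, HSP90AB1 and HSPA8, while the run stood in 0.49% of all 35116 windows. Stretches of 30 bases around 1 such run in each gene, or 2 overlapping runs in HSPD1, are shown because they are the part that HSF1 is known to read; capitals mark pairs of units, GAANNTTC or TTCNNGAA, each of which reads the same on both strands and overlaps its neighbour.
HSPD1 (chr2:197500059-197500088, minus strand): attTTCTGGAAAGTTCTGGAAccgagcgag
HSP90AA1 (chr14:102087111-102087140, minus strand): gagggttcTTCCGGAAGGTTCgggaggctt
HSP90AB1 (chr6:44247770-44247799, plus strand): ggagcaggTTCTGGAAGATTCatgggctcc
HSPA8 (chr11:123062345-123062374, minus strand): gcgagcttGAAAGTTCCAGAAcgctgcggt

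HSPA1A and its neighbour HSPA1B code for nearly the same protein, and their promoters are almost alike. Over the 250 bases before the start, 235 of 251 aligned positions were identical (93.6%). Both hold 1 pair of units, GAANNTTC, which 6.77% of all windows hold, in capitals in these 90 bases, shown because the values of these near-identical genes differed in direction.
HSPA1A (chr6:31815398-31815487, plus strand): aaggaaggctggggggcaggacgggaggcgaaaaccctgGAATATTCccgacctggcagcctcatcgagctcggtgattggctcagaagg
HSPA1B (chr6:31827593-31827682, plus strand): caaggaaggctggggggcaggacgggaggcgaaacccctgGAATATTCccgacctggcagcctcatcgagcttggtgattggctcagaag

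HSPA5 holds a different element, the endoplasmic reticulum stress element (CCAAT and, after 9 bases of any kind, CCACG), which the factors of the unfolded protein response read. It stood in 0.0769% of all windows, searched on both strands, and among the 10 genes in HSPA5 alone. The 200 bases before the start are shown with the element in capitals; its first letters also match the CCAAT box, found in 34.6% of windows.
HSPA5 (chr9:125241344-125241543, minus strand): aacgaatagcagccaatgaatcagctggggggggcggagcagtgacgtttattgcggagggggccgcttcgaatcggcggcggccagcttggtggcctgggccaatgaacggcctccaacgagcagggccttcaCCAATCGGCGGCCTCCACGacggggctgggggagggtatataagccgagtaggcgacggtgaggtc

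HSPD1 and HSPE1 lie head to head, and HSPD1 has 2 promoter windows. The start of 1 of them is separated from that of HSPE1 by 104 bases, and this window, which holds no heat shock unit pair, shares 204 bases with the HSPE1 window. The units shown above for HSPD1 lie in its other window, which shares no base with that of HSPE1. The stretch between those starts of HSPD1 and HSPE1 is shown in the direction of HSPE1, since the values of this pair differ in direction (below); capitals mark the GC box GGGCGG (here on the other strand), which 45% of windows hold on either strand.
HSPD1-HSPE1 (chr2:197500275-197500378, plus strand): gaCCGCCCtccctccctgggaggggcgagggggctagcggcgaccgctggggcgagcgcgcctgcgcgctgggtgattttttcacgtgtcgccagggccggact

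The deposited values are RPKM, that is, reads divided by exon length and by the total of the library. From the steps of these values, totals of 6572767 reads (vector) and 3233596 reads (ANGPTL4) were worked out, and the 10 genes had at least 430 reads each. ANGPTL4 itself was at 3.92 RPKM with the vector and 91.2 RPKM with ANGPTL4 (64 and 732 reads), although GEO's description calls it low in both. Of 15 urothelial and epithelial markers 12 reached 1 RPKM, and the list summed to 1662 and 1610 RPKM, with UPK3A at 0 in both libraries. Markers of other cells were low: the leukocyte, endothelial and fibroblast lists summed to 1.13, 0.556 and 4.76 RPKM with the vector and to 1.27, 0.927 and 4.73 RPKM with ANGPTL4, and CD3E, TEK, COL3A1, DCN and LUM were listed at 0 in both. Of these lists COL1A1, a fibroblast marker, at 4.14 and 4.06 RPKM, and CD14, a monocyte marker, at 0.968 and 1.15 RPKM, were the genes that reached 1 RPKM in a library. In bulk RNA, fewer cells that hold a transcript and less of it per cell cannot be told apart.

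The 10 genes went both ways: 5 were higher and 5 lower in the ANGPTL4 library, and none differed by 2-fold; of all measured genes 35.6% were higher and 64.4% lower. HSPD1 alone was at least 1.5-fold lower on the log2(RPKM + 1) scale, and none was 1.5-fold higher. Under other scalings of the libraries between 0 and 3 of the 10 were 1.5-fold lower, between 0 and 2 were 1.5-fold higher, and between 3 and 6 were higher at all. The log2 scale adds a pseudocount of 1 RPKM and is used for all log2 ratios here. Measured genes are the 11801 that reached 1 RPKM in at least 1 library, and of these 9.25% were 1.5-fold lower and 3.08% 1.5-fold higher, so 1 of 10 lies near the background. At 2-fold, 1.92% of measured genes were lower and 1.19% higher. These shares of all measured genes are also the background for the counts of each gene list below. The median log2 ratio of the 10 genes was 0.0035, that of all measured genes -0.11. Their summed level was 2344 RPKM with the vector and 2143 RPKM with ANGPTL4.

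**Figure D1:**
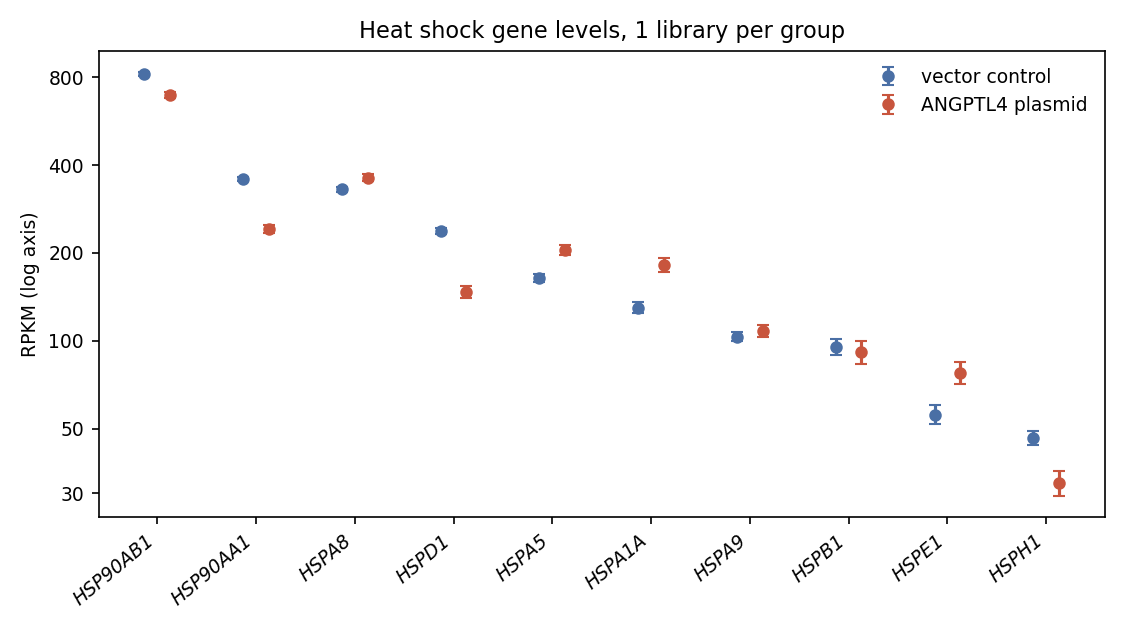
Level of each heat shock gene in RPKM (log axis) in the vector control and the ANGPTL4 library, with exact 95% counting intervals as bars and 1 library per group. HSPD1, HSP90AA1, HSP90AB1 and HSPH1 are lower and HSPE1, HSPA1A, HSPA5 and HSPA8 higher in the ANGPTL4 library (HSPA8 is lower once summed RPKM are made equal), while the bars of HSPA9 and HSPB1 overlap.

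In the mitochondrial matrix, the genes for the barrel and the lid of the chaperonin differed in opposite directions. HSPD1 (chromosome 2, 198351305 to 198381461, hg19) was at 237 RPKM with the vector and 147 RPKM with ANGPTL4. This is a ratio of 0.620 (95% interval 0.589 to 0.651, from 6617 and 2017 reads) and a log2 ratio of -0.69, the lowest of the 10. Centred on the median gene, the log2 ratio of HSPD1 was -0.58, just inside 1.5-fold. HSPE1 (chromosome 2, 198364718 to 198368181) was at 55.8 RPKM with the vector and 77.6 RPKM with ANGPTL4, a ratio of 1.39 (1.24 to 1.56, from 725 and 496 reads). The barrel gene was thus higher in the control library and the lid gene higher in the ANGPTL4 library. All such intervals are exact given the reads of both libraries, and they cover counting error only, not the spread between cultures.

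A ratio of 2 genes within a library does not depend on how the libraries are scaled. The level of HSPD1 was 4.25 times that of HSPE1 with the vector and 1.89 times with ANGPTL4. The change of that ratio was 0.446 (0.393 to 0.506). In the annotation of GENCODE release 29, whose exon lengths for this pair equal those worked out from the RPKM values, 281 bases of HSPD1 exons overlap exons of HSPE1 on the opposite strand. Whether the counting used strand is not given, and how far such reads bear on the pair was not tested. The read-through row HSPE1-MOB4, which shares 192 exon bases with HSPE1, was at 0.513 and 0.347 RPKM.

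HSPA9, the matrix HSP70 that also pulls imported proteins inward, was at 103 RPKM with the vector and 108 RPKM with ANGPTL4. Its ratio of 1.05 had an interval of 0.986 to 1.11 (from at least 3229 and 1662 reads), which includes 1 for the RPKM as deposited. This call rests on the scaling: the log2 ratio was 0.065 as deposited, 0.18 centred on the median gene, 0.23 with upper-quartile scaling and -0.10 with equal summed RPKM. Set against HSPA9 within each library, HSPD1 was at 2.29 times its level with the vector and 1.36 times with ANGPTL4 (change 0.592, 0.548 to 0.640). HSPE1 was at 0.540 times the level of HSPA9 and 0.717 times (change 1.33, 1.17 to 1.51). Barrel and lid therefore differed against this matrix partner, in opposite directions.

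Of 17 mitochondrial chaperone and protease genes, a list that includes these 3, 11 were lower and 6 higher, with a median log2 ratio of -0.07. This lies near the background, since 64.4% of all measured genes were lower and 35.6% higher. At least 1.5-fold lower were 3 of the 17 and none was 1.5-fold higher, beside 9.25% and 3.08% of all measured genes. Besides HSPD1 the 3 were HTRA2, a protease of the intermembrane space, at 5.94 and 3.51 RPKM, and DNLZ, a partner of HSPA9, at 1.89 and 0.885 RPKM. DNLZ had 39 and 9 reads and counts as measured through the control library alone, where it was higher. TRAP1, the mitochondrial HSP90, was at 56.4 RPKM with the vector and 65.2 RPKM with ANGPTL4, next to HSPE1 at the upper end of the list.

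**Figure D2:**
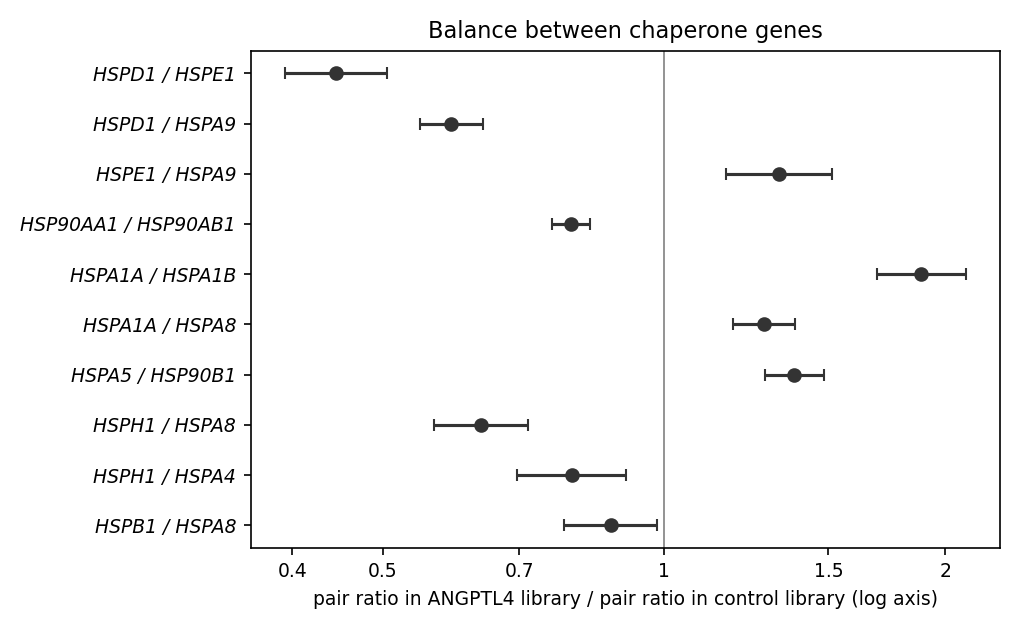
Change of the level ratio of 2 genes between the libraries (ratio within the ANGPTL4 library divided by ratio within the control library, log axis), with 95% counting intervals. HSPD1 over HSPE1 lies lowest at 0.446 and HSPA1A over HSPA1B highest at 1.89, and these values are free of library scaling.

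In the endoplasmic reticulum, HSPA5 (chromosome 9, 127997132 to 128003609), the main HSP70 of that compartment and a regulator of the unfolded protein response, was higher in the ANGPTL4 library. It was at 164 RPKM with the vector and 205 RPKM with ANGPTL4, a ratio of 1.25 (1.19 to 1.31, from 4218 and 2591 reads). Its HSP90 partner there, HSP90B1, was at 146 and 132 RPKM. The level of HSPA5 was 1.12 times that of HSP90B1 with the vector and 1.55 times with ANGPTL4, a change of 1.38 (1.28 to 1.48).

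The other folding genes of this compartment went both ways. Of 18 endoplasmic reticulum chaperones and folding enzymes, HSPA5 included, 9 were higher and 9 lower with a median log2 ratio of -0.0069; none was 1.5-fold higher and 1 was 1.5-fold lower. That gene was SDF2L1, a component of the HSPA5 complex, at 14.5 RPKM with the vector and 8.72 RPKM with ANGPTL4. The secreted survival factor MANF was at 25.1 and 32.7 RPKM, and the thioredoxin-fold chaperone ERP29 at 34.9 and 44.2 RPKM. CANX, the membrane lectin chaperone, was at 187 and 143 RPKM (ratio 0.765, 0.733 to 0.799), while its soluble relative CALR was at 359 and 451 RPKM (ratio 1.26, 1.21 to 1.31). The 2 lectin chaperones thus differed in opposite directions.

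The cytosolic HSP70 genes HSPA8 and HSPA1A were higher by their own rows, while the near-identical copy HSPA1B, described after them, was lower. HSPA8 (chromosome 11, 122928197 to 122933938), the constitutive HSP70 that also uncoats clathrin vesicles, was at 331 RPKM with the vector and 362 RPKM with ANGPTL4. The ratio was 1.09 (1.06 to 1.13, from 10552 and 5683 reads), and rescaling both libraries to the same summed RPKM turned its direction, with a log2 ratio of -0.039. HSPA1A (chromosome 6, 31783291 to 31785723), the heat-inducible HSP70, was at 129.9 RPKM with the vector and 182 RPKM with ANGPTL4, a ratio of 1.40 (1.31 to 1.4997, from 2077 and 1432 reads). Its log2 ratio of 0.48 was the highest of the 10.

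The near-identical HSPA1B row went the other way. HSPA1B was at 122 RPKM with the vector and 90.4 RPKM with ANGPTL4, a ratio of 0.743 (0.682 to 0.809, from 2016 and 737 reads). Coding sequences of HSPA1A and HSPA1B in GENCODE release 29 are identical at 1919 of 1923 bases, and 72.6% of all 50-base windows of the HSPA1A transcript occur unchanged in that of HSPA1B. HSPA1A took 50.7% of the reads of both rows with the vector (95% Wilson interval 49.2 to 52.3) and 66.0% with ANGPTL4 (64.0 to 68.0). Added together, the 2 rows were at 252 RPKM and 272 RPKM, and their reads had a ratio of 1.08 (1.02 to 1.14). The sum of the inducible HSP70 rows was therefore close to that of HSPA8 in its ratio, and the split between the copies differed more than their sum. How the authors placed reads that match both genes is not given, so the rows are uncertain one by one.

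Pseudogene rows held almost no reads, but how reads that match both a gene and its pseudogene were handled is not given. Whether such reads bear on the levels of the 10 genes was not tested. Of 68 symbols that name a pseudogene of one of the 10 genes, 2 were above 0, HSP90AB2P at 0.238 RPKM with the vector and HSP90AA5P at 0.141 RPKM with ANGPTL4. The 15 pseudogenes of HSPD1, 26 of HSPE1 and 17 of HSPA8 were all listed at 0 in both libraries. HSPA6, which is known as strictly heat-inducible, was at 0.0575 RPKM with the vector, the worth of 1 read, and was listed at 0 with ANGPTL4.

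HSPH1 (chromosome 13, 31710762 to 31736525), an HSP110 protein that reloads HSP70 with nucleotide and helps to dissolve aggregates, was lower in the ANGPTL4 library. It was at 46.5 RPKM with the vector and 32.5 RPKM with ANGPTL4, the lowest level of the 10 in both. The ratio was 0.698 (0.624 to 0.780, from at least 1252 and 430 reads) and the log2 ratio -0.51. Against HSPA8, the HSP70 it serves, HSPH1 was at 0.140 times the level with the vector and 0.0896 times with ANGPTL4 (change 0.638, 0.568 to 0.716). Its paralogue HSPA4 was at 67.6 and 59.2 RPKM, and HSPH1 was also lower against HSPA4 (change 0.797, 0.696 to 0.912).

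Among 11 other HSP70 and HSP110 genes, 9 were measured, 3 higher and 6 lower, with a median log2 ratio of -0.19 and none past 1.5-fold. HSPA12A, a distant HSP70 relative, was at 2.75 RPKM with the vector and 1.74 RPKM with ANGPTL4 (ratio 0.633, 0.357 to 1.07, which includes 1), and with HSPA1B was at the lower end. At the upper end HSPA1L was at 0.580 and 1.06 RPKM and HSPA2 at 1.18 and 1.63 RPKM, and the intervals of both ratios include 1. HSPA1L counts as measured through the ANGPTL4 library alone. These genes at the ends of the list were all low except HSPA1B.

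The HSP70 partners were near level as groups, with exceptions. Of 26 DNAJ co-chaperones, which deliver clients to HSP70, 25 were measured, 12 higher and 13 lower, with a median log2 ratio of -0.01. DNAJA1 was at 64.1 RPKM with the vector and 47.8 RPKM with ANGPTL4, and the heat-inducible DNAJB1 at 49.8 and 37.8 RPKM (ratio 0.759, 0.680 to 0.847). DNAJB4 was the 1 gene of this list past 1.5-fold, higher at 0.442 and 1.31 RPKM (11 and 16 reads, ratio interval 1.29 to 7.05). It counts as measured through the ANGPTL4 library alone, where it was higher. DNAJB6 followed at 6.22 and 7.66 RPKM. DNAJA1 and DNAJB1 were thus lower, and the 2 highest ratios belonged to less abundant genes.

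Of 10 nucleotide exchange factors, which release HSP70 from its client, 4 were higher and 6 lower, 1 past 1.5-fold in each direction, with a median log2 ratio of -0.06. HSPBP1 was at 19.2 RPKM with the vector and 11.2 RPKM with ANGPTL4 (ratio 0.581, 0.446 to 0.749), the lowest. BAG5 was at 2.14 and 4.28 RPKM (ratio 2.01, 1.43 to 2.81), the highest, and BAG1 and BAG6 came next at either end with 5.50 and 4.31 RPKM and with 60.5 and 68.7 RPKM. HSPBP1 and BAG5 thus lay apart from a group otherwise within 1.5-fold.

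Both cytosolic HSP90 genes were lower, the inducible more than the constitutive one. HSP90AA1 (chromosome 14, 102547075 to 102606036), the stress-inducible alpha form, was at 359 RPKM with the vector and 242 RPKM with ANGPTL4. The ratio was 0.673 (0.650 to 0.697, from 12389 and 4102 reads) and the log2 ratio -0.57, just short of the 1.5-fold limit. HSP90AB1 (chromosome 6, 44214824 to 44221620), the constitutive beta form, was the most abundant of the 10 in both libraries, at 822 and 695 RPKM, with a ratio of 0.846 (0.821 to 0.871, from at least 15102 and 6285 reads). Within a library HSP90AA1 was at 0.437 times the level of HSP90AB1 with the vector and 0.348 times with ANGPTL4 (change 0.796, 0.760 to 0.833). None of the 3475 windows of 36 bases in the HSP90AA1 transcript occurs unchanged in that of HSP90AB1. Exons of WDR20, on the opposite strand, overlap 197 bases of HSP90AA1 exons, and that row was at 3.09 and 2.53 RPKM.

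The helpers of HSP90 went both ways. Of 16 HSP90 co-chaperones 10 were higher and 6 lower, none past 1.5-fold, with a median log2 ratio of 0.02. CDC37, which brings kinases to HSP90, was at 81.7 RPKM with the vector and 105.8 RPKM with ANGPTL4 (ratio 1.29, 1.20 to 1.40). CDC37L1, at 0.886 and 1.41 RPKM, counts as measured through the ANGPTL4 library alone, and its ratio interval (0.809 to 3.08) includes 1. UNC45A, a chaperone of myosin, was at 7.91 and 5.24 RPKM (ratio 0.662, 0.537 to 0.811). STUB1, a ubiquitin ligase of chaperone clients, was at 21.0 and 17.1 RPKM (ratio interval 0.659 to 1.004, which includes 1). CDC37 was thus higher in the library where its partner HSP90 genes were lower.

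HSPB1 (chromosome 7, 75931861 to 75933612), a small heat shock protein that holds unfolding proteins in solution and binds actin, was at 94.97 RPKM with the vector and 91.2 RPKM with ANGPTL4. The ratio was 0.961 (0.860 to 1.07, from 1020 and 482 reads), an interval that includes 1 for the RPKM as deposited, and centring on the median gene turned its direction, with a log2 ratio of 0.054. Of 9 other genes listed as small heat shock proteins 2 were measured. HSPB8 was at 2.02 and 1.08 RPKM (at least 19 and 5 reads) and HSPB11 at 4.33 and 5.83 RPKM. The intervals of their ratios, 0.156 to 1.48 for HSPB8 and 0.959 to 1.88 for HSPB11, include 1. Both lay far below HSPB1. Its level was 0.287 times that of HSPA8 with the vector and 0.252 times with ANGPTL4 (change 0.877, 0.782 to 0.984).

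**Figure D3:**
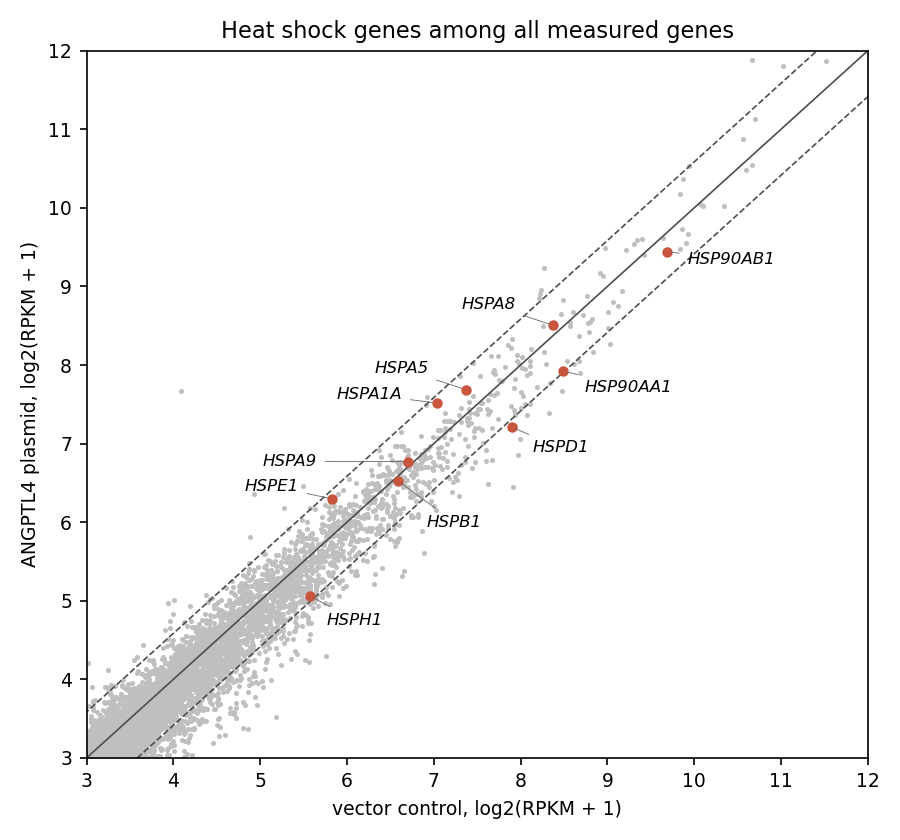
Level of each measured gene in the ANGPTL4 library against the control library, both as log2(RPKM + 1), with the 10 heat shock genes in red; the solid line marks equal levels, the dashed lines 1.5-fold, and genes below 3 on either axis are not shown. HSPD1 lies just past the lower dashed line with HSP90AA1 close to it, and HSPE1 and HSPA1A lie just inside the upper one.

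Against all genes of at least 30 RPKM, some of the 10 lay toward the edges and others nearer the middle. Among 1326 genes with at least 30 RPKM in a library, 10.6% were 1.5-fold lower and 2.19% 1.5-fold higher. Of these genes, 6.71% had a lower log2 ratio than HSPD1 and 11.4% a lower one than HSP90AA1. At the other side 96.1% had a lower log2 ratio than HSPA1A, 95.9% than HSPE1 and 90.4% than HSPA5. HSPB1 lay near the middle, with 57.5% below it. The shares below HSPH1, HSP90AB1, HSPA9 and HSPA8 were 14.2%, 35.1%, 71.0% and 77.3%. With the HSPA1B row added, the log2 ratio of HSPA1A was 0.11.

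The order of levels was led by the HSP90 and HSP70 genes in both libraries. In the control it ran HSP90AB1, HSP90AA1, HSPA8, HSPD1, HSPA5, HSPA1A, HSPA9, HSPB1, HSPE1, HSPH1, and the counting intervals of neighbours overlapped for HSPA9 and HSPB1 alone. In the ANGPTL4 library it ran HSP90AB1, HSPA8, HSP90AA1, HSPA5, HSPA1A, HSPD1, HSPA9, HSPB1, HSPE1, HSPH1, with overlap for HSPB1 and HSPE1 alone. By RPKM, HSPD1 thus had position 4 with the vector and position 6 with ANGPTL4, and HSPA8 passed HSP90AA1. The counting intervals do not cover the exon lengths by which RPKM divides, 4849 bases for HSPA8 and 5248 for HSP90AA1. With other lengths the order of neighbours could differ, and this was not tested. Among all gene symbols HSP90AB1 had rank 26 with the vector and 32 with ANGPTL4, and HSPD1 99 and 147. By distance on the log2(RPKM + 1) scale over both libraries, only 2 points, the gene nearest to HSPD1 was RPL3 (244 and 148 RPKM) and that nearest to HSPE1 was ANXA5 (54.8 and 75.5 RPKM). HSPA9 lay nearest BSG, HSPH1 nearest KDELR2 and HSPB1 nearest EIF4G2, each within 0.04 log2 units. SAT1 (HSP90AA1), FTL (HSP90AB1), RPL36AL (HSPA1A), NCL (HSPA5) and PRNP (HSPA8) were nearest to the others, at 0.11 to 0.15 log2 units.

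Genes known as heat-inducible targets of HSF1 did not go 1 way. Of 17 listed, 5 of which are among the 10, 16 were measured. Of these 8 were higher and 8 lower, none past 1.5-fold, with a median log2 ratio of -0.02. The lowest were HSP90AA1 and HSPH1 and the highest HSPA1A and ZFAND2A. ZFAND2A was at 4.202 RPKM with the vector and 5.83 RPKM with ANGPTL4 (63 and 43 reads), and its ratio interval (0.919 to 2.08) includes 1. The list leaves out HSPE1, HSP90AB1 and HSPD1, of which HSPD1 was past 1.5-fold. It counts HSPA1A and HSPA1B as separate genes, although how their shared reads were placed is not given. BAG3, a co-chaperone of selective autophagy, was at 60.9 and 66.8 RPKM (ratio interval 0.991 to 1.21, which includes 1). HSF1 itself was at 28.1 and 24.3 RPKM (ratio 0.862, 0.764 to 0.972). Of the 4 genes with a run of 3 heat shock units in a promoter window, HSPD1, HSP90AA1 and HSP90AB1 were lower. HSPA8 was higher, but lower with equal summed RPKM. Of all measured genes 64.4% were lower, and 79.4% with equal summed RPKM.

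Of 7 heat shock factors and regulators 4 were higher and 3 lower, with none past 1.5-fold and a median log2 ratio of 0.05. TRIM28, a corepressor, was at 92.1 and 65.5 RPKM and the HSF1-binding protein HSBP1 at 45.1 and 33.5 RPKM, the lowest of that list. HSF4 was at 1.62 and 2.47 RPKM (ratio interval 0.961 to 2.40, which includes 1).

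Prefoldin, which hands unfolded actin and tubulin to the cytosolic chaperonin, held the largest differences of the chaperone lists. Of 6 subunits 4 were lower and 2 higher, and 2 were at least 2-fold lower, with a median log2 ratio of -0.13. Of all measured genes 64.4% were lower and 1.92% at least 2-fold lower. VBP1 was at 9.03 RPKM with the vector and 1.81 RPKM with ANGPTL4 (ratio 0.201, 0.110 to 0.341, from at least 152 and 15 reads). PFDN1 was at 14.1 and 6.17 RPKM (ratio 0.437, 0.307 to 0.610). PFDN4 was at 13.8 and 18.2 RPKM (ratio interval 1.03 to 1.67) and PFDN6 at 10.3 and 12.8 RPKM (0.986 to 1.57, which includes 1). Subunits of this complex therefore lay in both directions, but the higher side was closer to counting error than HSPE1 (ratio interval 1.24 to 1.56).

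**Figure D4:**
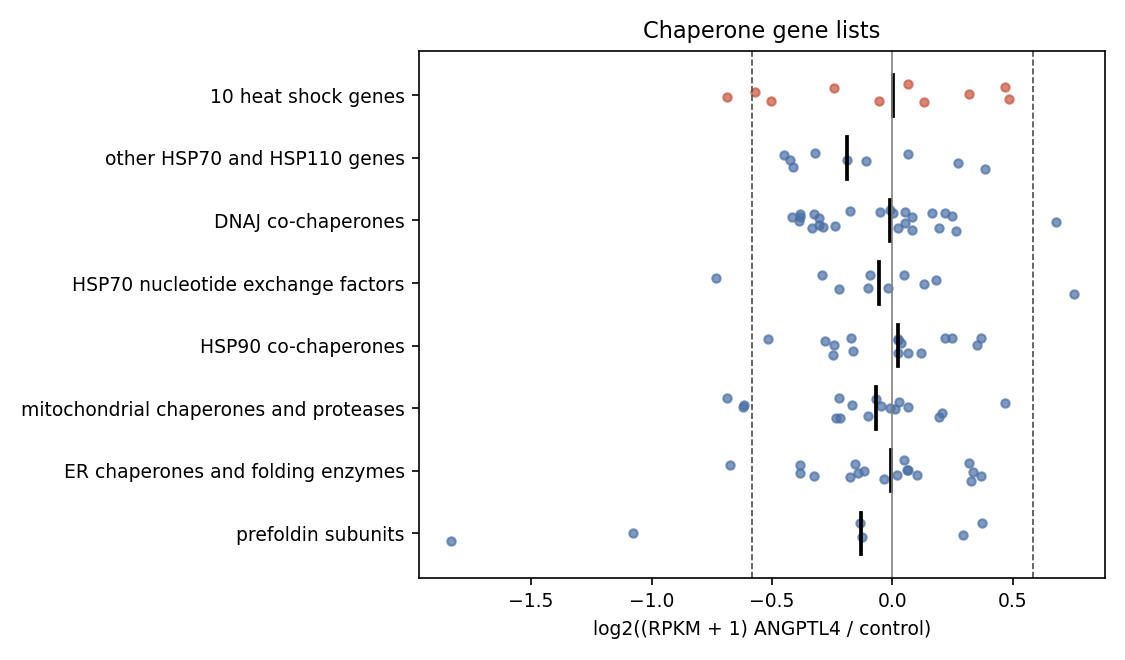
Log2 ratio of each measured gene of 8 chaperone lists (points, 1 gene each; spread within a row is for legibility), with the list median as a black bar and 1.5-fold as dashed lines. The 10 heat shock genes in red spread from -0.69 to 0.48 around a median of 0.0035, and VBP1 at -1.83 is the lowest point of the prefoldin row.

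The small size of these differences makes the scaling matter. Rescaling shifts all 10 log2 ratios together, and it turned the direction of HSPA8, HSPA9 and HSPB1 under at least 1 scaling. HSPD1, HSP90AA1, HSP90AB1 and HSPH1 were lower, and HSPE1, HSPA5 and, by its own row, HSPA1A higher, under each of the 4 rescalings tried. Of the 11 other chaperone lists, the median of the other HSP70 and HSP110 genes alone kept its sign under all 4 rescalings, so the list medians near 0 carry no direction. With HSPA1B added to it, HSPA1A had a log2 ratio of 0.11 as deposited. This is below the 0.13 of HSPA8, which turned direction with equal summed RPKM. The sum with HSPA1B was not rescaled, so no stable direction is claimed for it.

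**Figure D5:**
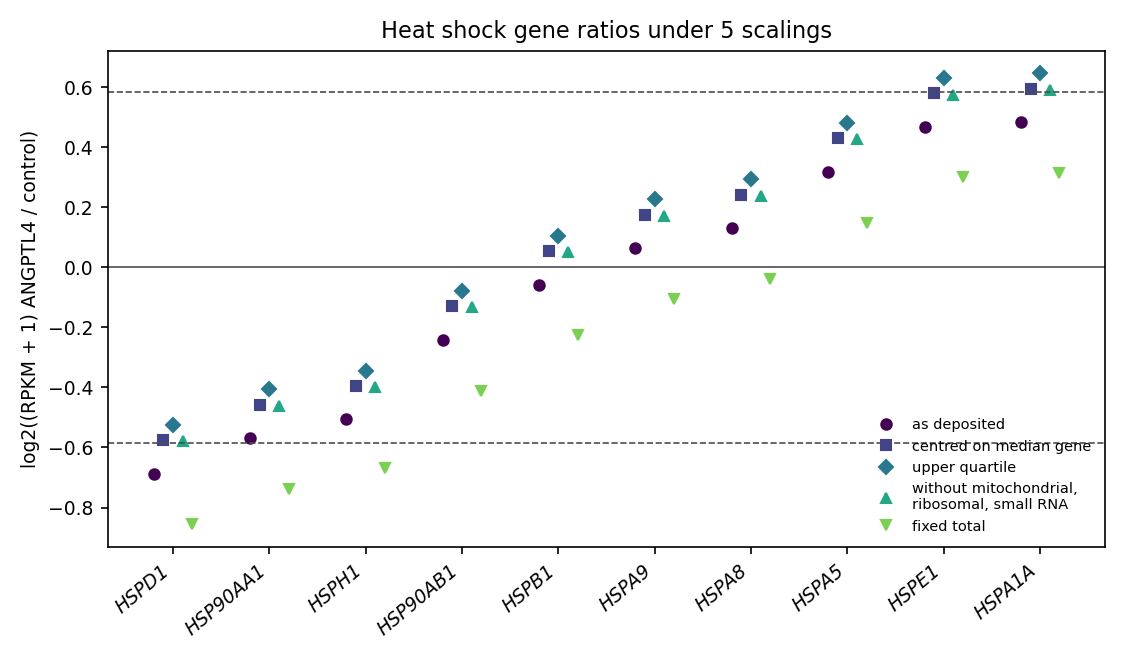
Log2 ratio of each heat shock gene with the RPKM as deposited and under 4 rescalings of the libraries (symbols), ordered by the deposited value, with 1.5-fold as dashed lines. HSPD1 is lowest and HSPA1A highest under each, and HSPB1, HSPA9 and HSPA8 have symbols on both sides of 0.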

How the data were processed

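The authors deposited 1 table of RPKM values per library, per the file headers. Per the submitters' processing notes the genome build was hg19. Aligner, counting program, annotation, read length, use of strand and handling of reads that match several loci are not given in the sources used here. Both tables held 57773 rows; number suffixes of repeated names were removed and rows of a symbol summed. Reads were worked out with Python 3.11.15 from the total, and for each row the exon length, at which values became whole reads (tolerance 0.0001). The totals made 300 of 1378 and 278 of 1123 values of rows shorter than 3 kb whole. The length equalled that of GENCODE release 29 or of the row's region for 7 of the 10 genes. For HSP90AB1, HSPA9 and HSPH1 the shortest length not under the coding length was used, so their reads are minimum numbers. Ratio intervals are exact (scipy 1.17.1) and conditional on the reads; intervals for a change of a pair ratio are from the conditional odds ratio. The fold rule and the intervals were tested on simulated data.

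The 10 genes and the lists were chosen with earlier results of these data known, and the gene pairs, the comparison with genes of at least 30 RPKM and the choice of sequences after values were seen. By rule the text names all 10 genes; of each other list the 2 measured genes with the lowest and the 2 with the highest log2 ratio and any past 2-fold; copies and read-through rows of at least 1 RPKM; and the gene nearest to each of the 10. 1 regulator that the rule names is not reported here. HSF1, BAG3, HSPA6, HSPA4, CALR, DNLZ, COL1A1, CD14, WDR20 and HSPE1-MOB4, and the pseudogenes above 0, were added after their values were seen. Alternative settings were a pseudocount of 0.1 or 5 RPKM, a minimum of 0 or 5 RPKM, 4 rescalings of the libraries (centring on the median gene, upper quartile, equal summed RPKM, and totals without mitochondrial, ribosomal and small RNA genes), adding pseudogene rows and HSPA1B, and reads scaled to depth without length.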

Additional observations from a re-analysis of the deposited data

How the results depend on the processing

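Pseudocounts of 0.1 and 5, no minimum, a minimum of 5 RPKM, added pseudogene and copy rows and depth-scaled reads without length left the median of the 10 genes between 0.00355 and 0.00356 and 1 gene at least 1.5-fold lower. The 4 rescalings moved both. The median log2 ratio was 0.12 after centring on the median gene, 0.17 with upper-quartile scaling, 0.11 without mitochondrial, ribosomal and small RNA genes and -0.16 with a fixed total. The count of genes 1.5-fold lower was 0, 0 and 0 under the first 3 of these and 3 under the fixed total. The median of all measured genes moved from -0.11 to 0.0, 0.026, -0.020 and -0.25 under the same rescalings, by construction. The share of measured genes 1.5-fold lower was 5.89%, 5.58%, 6.64% and 15.4%, and the share 1.5-fold higher 4.64%, 5.11%, 4.19% and 2.21%. The count of all measured genes 1.5-fold lower ranged from 309 (pseudocount 5) to 1817 (fixed total), against 1092, and that 1.5-fold higher from 75 (pseudocount 5) to 603 (upper quartile), against 364. At 2-fold, lower genes ranged from 26 to 532 and higher genes from 15 to 284, with pseudocounts of 5 and 0.1. With 1 library per group no replicate could be left out. No paired analysis was possible because each group has 1 library and no result comes from a test. The intervals of HSPA9 and HSPB1, which include 1, hold for the deposited scaling.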
